A study of Mus musculus with 10 samples.

Results

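The endothelin axis was followed through 5 genes of the deposited table of 55815 usable genes: the receptors Ednrb and Ednra, the converting enzymes Ece1 and Ece2, and the ligand gene Edn1. They were chosen by symbol, and the choice rested on the opposite directions of Ednrb and Ece1 with miR-342-3p overexpression against the mutated control. That comparison is therefore given for them as a description, with no test. Only 2 of the 5, Ednrb and Ece1, passed the filter on expression, and the other 3 had at most 6 reads in any library.

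Polyadenylated RNA was sequenced from iKCs, the labels' name for a mouse cell line, after live, mOrange-positive transduced cells had been collected by sorting. There were 4 groups: overexpression of miR-342-3p (n = 3), mutated miR-342-3p control (n = 2), miR-342-3p sponge (n = 3) and scramble control sponge (n = 2). All groups carried a lentiviral vector, and a sponge RNA carries target sites that are meant to hold a microRNA back. All libraries come from 1 cell line, the labels call them biological replicates without saying how the cultures were separated, and the p-values reflect only how these libraries vary. The promoter of each vector and the sequence of the mutated hairpin are not given in the sources used here.

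Endothelins are short vasoactive peptides that are cut out of longer precursors. Furin-type proteases release an inactive intermediate, big endothelin, and the membrane metalloprotease Ece1 cuts this to the active peptide. The receptor Ednra is best known for constriction of vessels. The receptor Ednrb is known in endothelium for nitric oxide release and for clearance of endothelin. Both are G protein coupled receptors, and in liver the axis is studied mostly in stellate and sinusoidal endothelial cells.

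Library totals ranged from 25712732 to 59259988 counts. Reads over the Mir342 hairpin checked the vectors: they came to 8.22, 11.3 and 9.41 CPM (reads scaled to the size of the library) with overexpression, against 2.86 and 3.22 CPM in the mutated control. The 5 sponge and scramble libraries had 0 hairpin reads, a count that leaves room for up to 0.0886 CPM in the library with the lowest total, so the hairpin does not tell those groups apart. General macrophage markers were high: Csf1r, the receptor for the macrophage growth factor, lay between 1779 and 2333 CPM, and Adgre1, which encodes F4/80, between 418 and 485 CPM. Markers tied to Kupffer cells were mixed. Clec4f and Timd4 had 0 reads in all 10 libraries and Vsig4 had 17, while Spic averaged 12.5 CPM, Id3 5.07 CPM, Marco 3.42 CPM, Nr1h3 2.17 CPM and Cd5l 2.09 CPM over the 10 libraries.

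Ednrb took 3 levels across the 4 groups, lowest with overexpression and highest in the mutated control. It had 20.0, 20.0 and 25.3 CPM in the overexpression libraries, against 50.8 and 53.1 CPM in the mutated control libraries. It had 37.3, 44.2 and 31.5 CPM in the sponge libraries, against 35.4 and 35.4 CPM in the scramble libraries. All 3 overexpression libraries lay below every other library, and both mutated control libraries lay above every other library. The sponge libraries enclosed the scramble libraries, so these neighbours in the order do not differ beyond their spread. The group means were 21.8 ± 3.04 CPM with overexpression (SD, n = 3) and 51.9 ± 1.66 CPM in the mutated control (SD, n = 2). They were 37.7 ± 6.36 CPM with the sponge (SD, n = 3) and 35.4 ± 0.0528 CPM in the scramble group (SD, n = 2). In these bulk libraries fewer cells that carry the transcript and less of it per cell cannot be told apart.

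**Figure D1:**
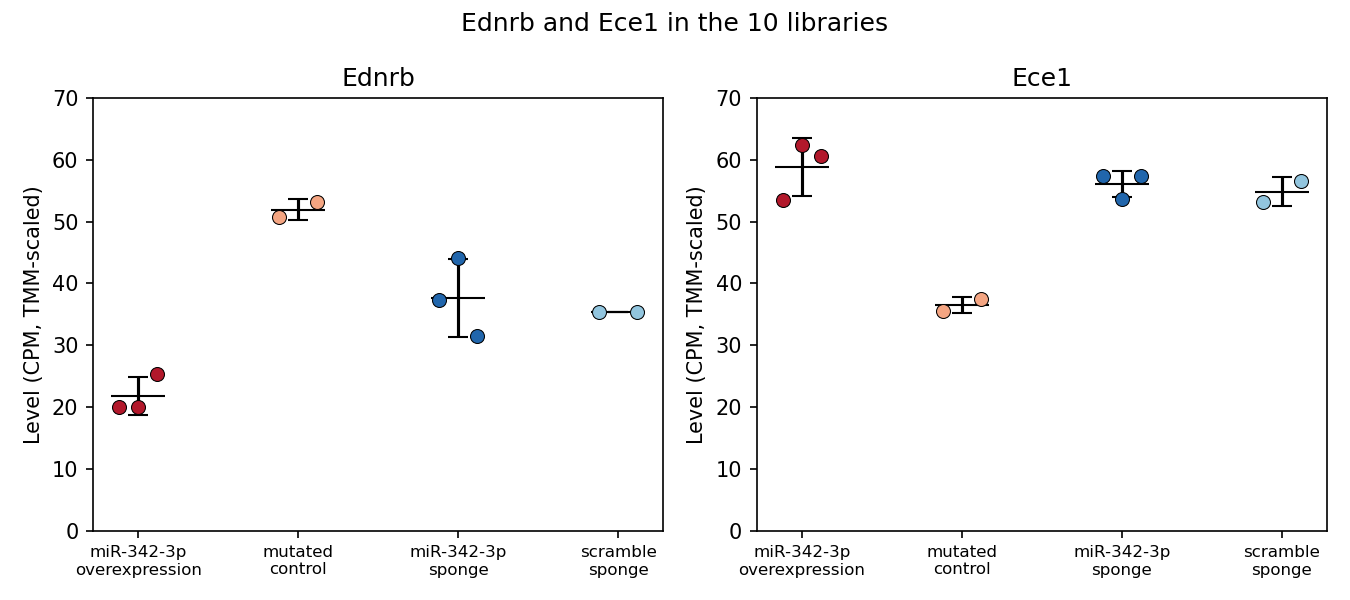
Level of Ednrb (left) and Ece1 (right) in each of the 10 libraries, in CPM scaled by TMM factors, on an axis that starts at 0. Points are libraries and bars are the mean ± SD; Ednrb is lowest with overexpression (21.8 CPM) and highest in the mutated control (51.9 CPM), whereas Ece1 is low in the mutated control alone (36.5 CPM).

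Ece1 took only a low and a high level, and the low level belonged to the mutated control. It had 53.5, 62.4 and 60.5 CPM in the overexpression libraries, against 35.6 and 37.5 CPM in the mutated control libraries. It had 57.4, 53.7 and 57.4 CPM in the sponge libraries, against 53.2 and 56.5 CPM in the scramble libraries. Every library outside the mutated control lay above both mutated control libraries. The overexpression, sponge and scramble libraries overlapped, so the order of their means (58.8 ± 4.69, 56.1 ± 2.13 and 54.9 ± 2.36 CPM, SD) is within their spread. The mutated control averaged 36.5 ± 1.35 CPM (SD, n = 2).

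Against the mutated control, the log2 fold change with overexpression was −1.26 (SE 0.13) for Ednrb, a level 2.40-fold lower, and 0.69 (SE 0.08) for Ece1, a level 1.61-fold higher. Of 15767 tested genes, 131 had a lower fold change than Ednrb and 207 a higher one than Ece1. In this comparison, on which the choice of the genes rested, edgeR called 0.539% of tested genes, and both genes were among them. The groups did not overlap for either gene, nor for 38.2% of all tested genes. Because the comparison chose these genes, nothing further is read from these counts.

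The scramble group gave a second reference, and there the 2 genes parted. With overexpression minus scramble, the log2 fold change was −0.71 (SE 0.13) for Ednrb and 0.10 (SE 0.08) for Ece1. With mutated control minus scramble it was 0.55 (SE 0.14) for Ednrb and −0.59 (SE 0.08) for Ece1. Ednrb in the scramble group thus lay between the 2 hairpin vectors, while Ece1 in the overexpression group lay at the scramble level. In the first of these edgeR called 0.0444% of tested genes and in the second 0.0254%. Ednrb did not overlap between groups in either comparison and Ece1 did not in the second, which also held for 31% of tested genes in the first and for 48.4% in the second. These comparisons share libraries with the one that chose the genes and with each other, so they are given without a test. Scramble cells carry a vector of the sponge type, so an effect of the hairpin and of the type of vector cannot be told apart here.

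**Figure D2:**
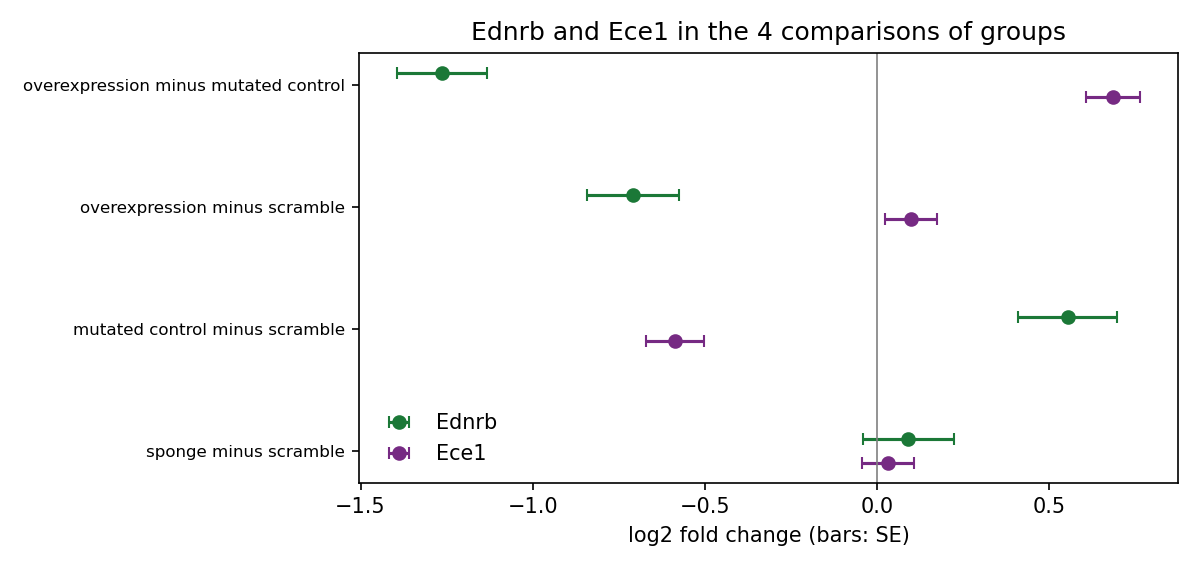
Log2 fold change of Ednrb (green) and Ece1 (purple) in 4 comparisons of groups, with bars of 1 SE. Ednrb is at −1.26 against the mutated control and at −0.71 against scramble with overexpression, Ece1 is at 0.69 and 0.10, and both lie within 1 SE of 0 for the sponge.

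The sponge against the scramble sponge used libraries that had no part in the choice of the genes, and no change in either gene was detected. The log2 fold change of Ednrb was 0.09 (SE 0.13, edgeR adjusted p = 1), with a 95% interval from −0.20 to 0.38. That of Ece1 was 0.03 (SE 0.08, edgeR adjusted p = 1), with a 95% interval from −0.14 to 0.20. In both genes the libraries of the 2 groups overlapped, whereas they did not overlap for 15.2% of tested genes. For all 15767 genes edgeR called 0%, against 368 genes at an unadjusted p under 0.05, while DESeq2 called 1 and limma-voom 0. The sign of the Ednrb value rested on sponge replicate 2, without which it was −0.04, and that of Ece1 on scramble replicate 1, without which it was −0.01. The mature microRNA was not measured, so whether the sponge lowered it is not known.

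Within a library, the reads of Ece1 per kilobase of exon can be set against those of Ednrb without any scaling between libraries. Ece1 had 2.15, 2.51 and 1.93 times the read density of Ednrb in the overexpression libraries, against 0.564 and 0.568 times in the mutated control libraries. The ratio was 1.24, 0.978 and 1.47 in the sponge libraries and 1.21 and 1.29 in the scramble libraries. The converting enzyme was thus the denser transcript with overexpression and the receptor the denser one in the mutated control. The genes were chosen for their opposite directions between these 2 groups, so this contrast of ratios restates the choice. Across the other 2 groups the ratio ran from 0.978 to 1.47, with the sponge libraries spread around the scramble values. Ece1 was the denser transcript in each of these libraries but sponge replicate 2. Across the 10 libraries the log2 CPM of Ednrb and Ece1 had a Pearson r of −0.729 and a Spearman rho of −0.721. Both values describe libraries that fall into groups, and the libraries on which the choice rested are among them.

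In CPM per kilobase of exon, Ednrb had 5.10 with overexpression and 12.2 in the mutated control, and 8.83 with the sponge and 8.30 in the scramble group. Its read density exceeded that of 53.0% of tested genes with overexpression and of 71.2% in the mutated control. Ece1 had 11.1 CPM per kilobase with overexpression, which exceeded 69.1% of tested genes, and 6.89 in the mutated control, which exceeded 58.9%. Both are therefore mid-range transcripts in this line.

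The deposited table places Ednrb on chromosome 14 from 104052061 to 104081838 (minus strand) and Ece1 on chromosome 4 from 137589548 to 137692540 (plus strand). The table counts them over 4266 and 5300 bases of exon. No exonic base of either gene is shared with another gene of the table, so the unstranded counting does not mix their reads with those of a partner.

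MicroRNAs recognise messages mainly through their seed, bases 2 to 8, paired to the 3′ UTR. The mature miR-342-3p of RefSeq (GRCm38.p6) and the seed sites in the 3′ UTRs of GENCODE vM21 (GRCm38) are shown because Ednrb holds the longest kind of seed match and Ece1 holds none. Capitals mark the seed in the microRNA and the 8mer, GTGTGAGA, in the messages; Wasl and Ifnar1 are described further on.
mmu-miR-342-3p: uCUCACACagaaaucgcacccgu
Ednrb: gctagcagaaaggtgtgcgcgcGTGTGAGA
Wasl: atcaacaagggagtttaattatGTGTGAGA
Ifnar1: ccagcaacttcagtgaaaagctGTGTGAGA
The Ednrb site begins at base 119 of a 3′ UTR of 2441 bases, and the stretch shown is chr14:103816940-103816969 on the minus strand. It is present in 2 of the 3 distinct 3′ UTRs annotated for Ednrb, and the counts are per gene, so which of them these cells use is not known. An 8mer was found in the longest 3′ UTR of 4.16% of 21153 annotated genes and of 5.09% of the 11933 tested genes with a 3′ UTR.

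The 3′ UTR of Ece1, of 2323 bases, held none of the 4 kinds of match searched on the message strand: GTGTGAGA (8mer), GTGTGAG (7mer-m8), TGTGAGA (7mer-A1) and TGTGAG (6mer), each counted once under its longest form. The 3′ UTR of Edn1, of 1111 bases, held none either. That of Ednra held 2 7mer-A1 matches and 1 6mer, and that of Ece2 held 1 7mer-m8 match and 1 6mer. At least 1 of the 4 kinds was found in 39.1% of annotated genes. A match is a string in the annotation, and its absence says only that these letters are not in that window.

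The remaining 3 genes were at or near 0. Edn1, which encodes endothelin-1, had 2, 6 and 4 reads in the overexpression libraries, against 4 and 2 in the mutated control libraries, and 4, 2 and 5 in the sponge libraries, against 2 and 2 in the scramble libraries. Its highest level in any library was 0.156 CPM, and the groups overlapped. Ece2, a converting enzyme related to Ece1, had 10 reads in the 10 libraries together: 4 with overexpression, 2 in the mutated control, 1 with the sponge and 3 in the scramble group. Ednra had 1 read in all, in a sponge library. A count of 3 corresponds to between 0.0506 and 0.117 CPM in these libraries, so a difference between groups was not detectable at this depth in any of the 3.

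The counting bears on Ece2 in particular. Of its 5110 exonic bases, 57.5% are shared with Gm49333, a gene model on the same strand that had 0 reads, and the recorded counting command has no option that keeps pairs assigned to more than 1 gene. The Ece2 count therefore stands for the unshared part of the gene. Only 1.66% of the exonic bases of Ednra and 1.64% of those of Edn1 are shared with an antisense model, each with 0 reads.

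The ligand side of the axis was close to empty beyond Edn1 as well. Edn2 had 1 read and Edn3 had 0 in all 10 libraries. Kel, whose product processes big endothelin-3, and the chymase gene Mcpt4 had 0, the chymase gene Cma1 had 1, and Mme, which encodes the endothelin-degrading protease neprilysin, had 2. What these cells did carry were the proteases of the general machinery. Furin, which cuts endothelin precursors among many others, had 102 ± 6.08 CPM with overexpression (SD, n = 3) and 98.6 ± 2.85 CPM in the mutated control (SD, n = 2). It had 113 ± 5.02 CPM with the sponge (SD, n = 3) and 109 ± 3.52 CPM in the scramble group (SD, n = 2). Ctsd, the lysosomal protease cathepsin D, lay between 2389 and 3077 CPM, and Ide, the insulin-degrading enzyme, between 49.6 and 61.6 CPM.

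Of 14 genes of ligands, processing and clearance, 4 passed the expression filter and 0 were called in any of the 4 comparisons with edgeR. At an edgeR adjusted p of 0.192, Ctsd had a log2 fold change of 0.22 (SE 0.08) with overexpression against the mutated control. The list median was 0.05, beside −0.01 for all tested genes. For the sponge the list median was 0.03, beside 0.00 for all tested genes.

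The signalling side below the receptors was well represented. Of 41 genes for G proteins, phospholipases, kinases, arrestins and regulators of G protein signalling, 37 passed the filter. Gnaq, whose product couples endothelin receptors to phospholipase C, lay between 181 and 209 CPM, and Gnai2, an inhibitory alpha subunit, between 853 and 1055 CPM. With overexpression against the mutated control, 1 of the 37 was called, beside 0.539% of all tested genes, and it fell: Src, a tyrosine kinase. This list and those that follow were drawn up with earlier results of these data known. A count of calls in them, set beside that share, is therefore a description. Src had 4.32 ± 0.548 CPM with overexpression (SD, n = 3) and 8.16 ± 0.0524 CPM in the mutated control (SD, n = 2), a log2 fold change of −0.91 (SE 0.16, edgeR adjusted p = 0.0452). The scramble group had 5.17 ± 1.01 CPM of Src (SD, n = 2) and the sponge group 4.88 ± 0.842 CPM (SD, n = 3), so Src, like Ece1, was apart in the mutated control. With mutated control replicate 1 or replicate 2 left out, edgeR called 0 genes in this comparison, against 1430 and 1578 genes at an unadjusted p under 0.05, so the calls of Src, and of Klf2, S1pr1 and Kdr described next, end there.

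The next smallest p-values of this list belonged to regulators of G protein signalling, which speed the shut-off of G proteins. Rgs14 had a log2 fold change of 0.35 (SE 0.08, edgeR adjusted p = 0.096) and Rgs3 one of 0.32 (SE 0.10, edgeR adjusted p = 0.148); neither passed. The list median was −0.02, beside −0.01 for all tested genes, with 16 members above 0 and 21 below. In the sponge comparison 0 of 37 were called, with a median of −0.02. Its smallest p-values were those of the alpha subunits Gnas (0.18, SE 0.08), Gna11 (−0.14, SE 0.07) and Gna12 (0.06, SE 0.06), each with an edgeR adjusted p of 1.

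Within that list Gna13, Grk5 and Rgs2 held an 8mer for miR-342-3p, as Ednrb did. Their log2 fold changes with overexpression against the mutated control were −0.07, −0.14 and −0.23, and none of the 3 passed, with edgeR adjusted p-values of 0.637, 0.522 and 0.224. Against scramble the same genes had −0.04, 0.05 and −0.07.

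Of 16 transcription factors and other regulators tied to the axis, 11 passed the filter. Klf2, a flow-responsive factor that represses Edn1 in endothelium, was the 1 of 11 called with overexpression against the mutated control, beside 0.539% of all tested genes, and it rose. It had 47.8 ± 2.59 CPM with overexpression (SD, n = 3) and 26.4 ± 3.40 CPM in the mutated control (SD, n = 2), a log2 fold change of 0.86 (SE 0.11, edgeR adjusted p = 0.0119). It also rose against scramble (21.2 ± 1.01 CPM, SD, n = 2), by 1.17 (SE 0.11, edgeR adjusted p = 0.00268), beside 0.0444% of tested genes called there. Edn1 itself was too low for a value to be set beside this. Fos, part of the AP-1 factor, had −0.56 (SE 0.14, edgeR adjusted p = 0.106) against the mutated control and did not pass, and neither did Mitf, which acts with Ednrb in melanocytes (−0.28, SE 0.08, edgeR adjusted p = 0.131). For the sponge 0 of 11 were called, and the smallest p-values were those of Jun (0.20, SE 0.07), Klf4 (−0.19, SE 0.10) and Hif1a (−0.11, SE 0.07), each with an edgeR adjusted p of 1.

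Between the 2 controls all 11 tested regulators lay above 0 in the mutated control against scramble, with a median of 0.19 beside 0.00 for all tested genes. For 8 of the 11 the groups did not overlap, which held in that direction for 24.1% of tested genes, and 0 were called by edgeR. The values ran from 0.0044 for Kdm4b to 0.35 for Fosl2, and Fosl2 had an edgeR adjusted p of 0.531. Sox10 and Gata2 had 3 and 11 reads in all, and Nos3, the endothelial nitric oxide synthase, had 50.

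Other receptors for vasoactive and inflammatory ligands were examined as a setting for Ednrb. Of 30, 21 passed the filter, and 1 was called with overexpression against the mutated control, beside 0.539% of all tested genes: S1pr1, a receptor for sphingosine-1-phosphate, fell. It had 88.0 ± 6.83 CPM with overexpression (SD, n = 3) and 132 ± 10.3 CPM in the mutated control (SD, n = 2), a log2 fold change of −0.58 (SE 0.09, edgeR adjusted p = 0.0252). It had 100.2 ± 2.60 CPM in the scramble group (SD, n = 2), and the value against scramble was −0.19 (edgeR adjusted p = 0.391). With the sponge S1pr1 had 93.0 ± 8.82 CPM (SD, n = 3), which overlapped the overexpression libraries. Both mutated control libraries lay above every other library, so S1pr1, like Src, was apart in the mutated control. The list median was −0.13 beside −0.01 for all tested genes, with 15 of 21 below 0. Ptafr, the receptor for platelet-activating factor (−0.39, SE 0.10, edgeR adjusted p = 0.114), and Lpar6, a receptor for lysophosphatidic acid (−0.69, SE 0.19, edgeR adjusted p = 0.126), did not pass. For the sponge 18 of 21 lay below 0, with a median of −0.07 and 0 called. The smallest p-values there were those of the prostacyclin receptor gene Ptgir (−0.23, SE 0.08), the formyl peptide receptor gene Fpr2 (−0.73, SE 0.29) and the nucleotide receptor gene P2ry6 (0.14, SE 0.08), each with an edgeR adjusted p of 1. Receptors for complement fragments were the most abundant of these, with C3ar1 between 572 and 681 CPM, well above Ednrb even per kilobase (146 CPM per kilobase over the 10 libraries, beside 8.27 for Ednrb).

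**Figure D3:**
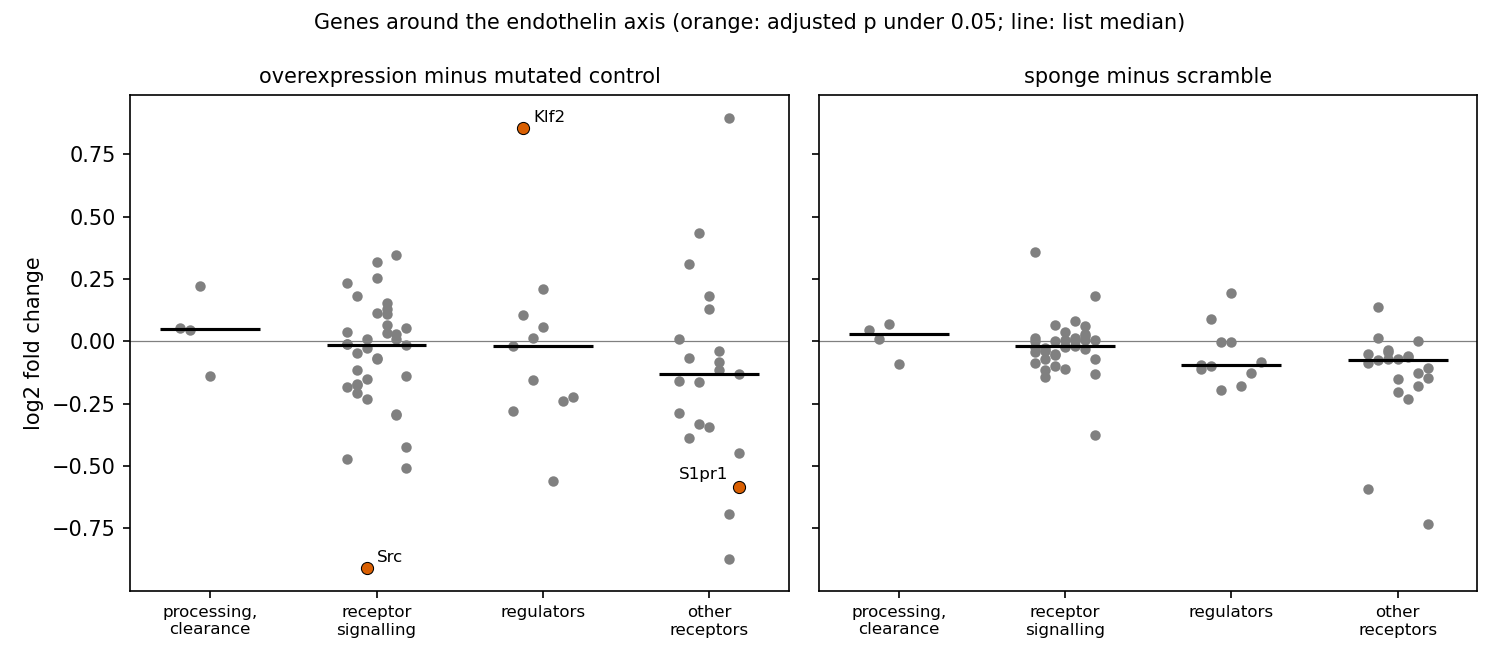
Log2 fold changes of the tested genes of 4 lists around the endothelin axis, with overexpression minus mutated control on the left and sponge minus scramble on the right. Each point is a gene, black lines are list medians and orange points passed an edgeR adjusted p of 0.05: Src and S1pr1 fell and Klf2 rose with overexpression, and 0 genes passed for the sponge.

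Ednrb is also a gene of endothelial and stellate cells, so markers of those cells are given beside it. The summed level of 13 endothelial markers was 138 to 173 CPM with overexpression and 177 to 198 CPM in the mutated control. It was 186 to 206 CPM with the sponge and 181 to 208 CPM in the scramble group. Most of this sum was Vwf, with 95.6 to 163 CPM, while Pecam1 averaged 0.311 CPM over the 10 libraries and Clec4g had 0 reads. With overexpression against the mutated control, 3 of the 8 tested lay above 0 and 5 below, and 1 was called, beside 0.539% of all tested genes. Kdr, a receptor for vascular endothelial growth factor, was the one called, and it was lower with overexpression. It had 17.7 to 20.5 CPM there and 25.0 to 27.1 CPM in the mutated control. The log2 fold change was −0.47 (SE 0.08), with an edgeR adjusted p of 0.0352. Kdr had 19.0 to 20.7 CPM in the scramble group and 20.1 to 20.9 CPM with the sponge. Against scramble the overexpression value was −0.08 (edgeR adjusted p = 0.684), so Kdr, like Src, was apart in the mutated control. Flt1, another receptor for that factor, had 0.30 (SE 0.12, edgeR adjusted p = 0.236) and Vwf −0.28 (SE 0.12, edgeR adjusted p = 0.257), and neither passed. For the sponge 0 of 8 were called, with Flt1 at −0.36, Eng at 0.16 and Pecam1 at −0.61. The part of these transcripts in the Ednrb levels was not tested. The 12 stellate and fibroblast markers summed to 1.33 to 1.52 CPM with overexpression and 1.18 to 1.74 CPM in the mutated control, with Lrat at 0 reads. The 2 tested, Pdgfrb and Acta2, had −1.30 (SE 0.55) and 0.48 (SE 0.26), with edgeR adjusted p-values of 0.253 and 0.341. For the sponge they had 0.41 (SE 0.41) and −0.14 (SE 0.25), each with an edgeR adjusted p of 1. The 7 hepatocyte markers in the table summed to at most 0.0787 CPM in any library. The 19 macrophage and Kupffer markers summed to 5019 to 5530 CPM with overexpression and 5352 to 5746 CPM in the mutated control, with 0 of 16 tested members called by edgeR. The smallest p-values were those of Spic (−0.42, SE 0.10, edgeR adjusted p = 0.0957), Itgam (0.25, SE 0.08, edgeR adjusted p = 0.159) and Cd5l (−0.57, SE 0.21, edgeR adjusted p = 0.201). For the sponge they were those of Cd5l (0.53), Fcgr1 (−0.15) and Spic (−0.17), each with an edgeR adjusted p of 1.

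The genes whose log2 CPM over the 10 libraries was most like that of Ednrb were Kif3a, a kinesin subunit of cilium transport, with a Pearson r of 0.984, and Wasl, an actin regulator, with 0.970. They were followed by the iron exporter Slc40a1 (0.969), the inhibitory receptor Cd300a (0.959) and the ectonucleotidase Entpd1 (0.959). All 5 had their lowest group mean with overexpression and their highest in the mutated control. Wasl had 30.4 CPM with overexpression and 53.4 CPM in the mutated control, and 44.5 CPM with the sponge and 43.4 CPM in the scramble group. Kif3a followed the same order over a far narrower range, with 127 CPM with overexpression and 147 CPM in the mutated control. Only Wasl of the 5 had an 8mer in its longest 3′ UTR, at base 285. The correlations run over libraries that share the 4 groups, so they restate the group pattern and carry no p.

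The genes most like Ece1 were Ifnar1, a subunit of the type I interferon receptor (0.992), Champ1, a chromosome alignment protein (0.979), the ubiquitin ligase adaptor Dcaf12 (0.957), the membrane ubiquitin ligase Marchf9 (0.937) and E2f8, an E2F repressor (0.933). Each had its lowest group mean in the mutated control. Ifnar1 had 126, 134 and 133 CPM in the overexpression libraries, against 98.3 and 102 CPM in the mutated control libraries, and its sponge and scramble libraries lay between 128 and 133 CPM. Ifnar1 holds an 8mer at base 463 of its 3′ UTR, in 1 of 5 annotated forms, and its log2 fold change with overexpression minus scramble was 0.02 (SE 0.06). Ranked by Spearman's rho, 0 of the 5 for Ednrb and 1 of the 5 for Ece1 stayed among the nearest 5, so the names depend on the measure.

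**Figure D4:**
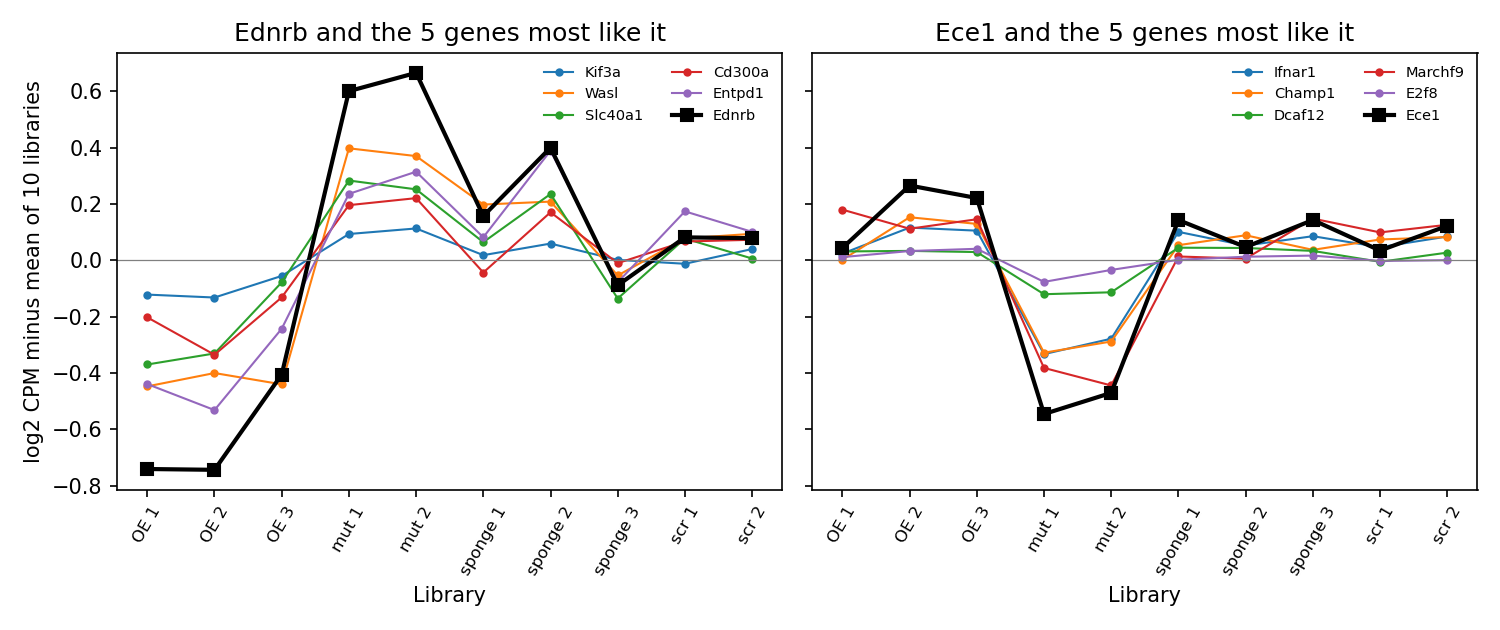
Log2 CPM minus its mean over the 10 libraries for Ednrb (left, black) and Ece1 (right, black) with the 5 genes most like each by Pearson correlation (coloured). Libraries run along the horizontal axis by group (OE, overexpression; mut, mutated control; scr, scramble) and lines only guide the eye; the Ednrb set is low in the OE libraries and high in the mut libraries, and the Ece1 set is low in the mut libraries.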

How the data were processed

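The deposited table holds raw read counts per gene that the authors made, per the file headers, with featureCounts 2.0.1 on the GENCODE vM30 annotation, for read pairs, with strand setting 0 and a minimum overlap of 10 bases. Quality control, trimming and alignment used FastQC 0.11.6, Trimmomatic and STAR 2.7.6a with build GRCm38, per the submitters' processing notes. The vM30 annotation belongs to a later build, so gene coordinates are those of the table; sites are in GRCm38. Each line has 15 fields under 16 names, since the values of sponge replicate 3 run into those of a scramble library. Joined numbers were split at the likeliest place (negative binomial, dispersion 0.1, expectation from the 8 intact libraries); 51 genes whose best split was under 100 times likelier than the next were left out. On 56 pairs of intact libraries joined on purpose, at least 99.9016% of genes were recovered. Replicate numbers of the scramble libraries rest on the order of the header.

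The test was that of edgeR 4.0.16 (quasi-likelihood, TMM, expression filter; all 10 libraries in 1 fit; Benjamini-Hochberg over 15767 genes, threshold 0.05) in R 4.3.3; CPM carry TMM factors and an SE is the log2 fold change over the square root of F. DESeq2 1.42.0 and limma-voom (limma 3.58.1) were alternatives. The code was tested on simulated data. The genes and lists were chosen with earlier results of these data known. Named were the 5 genes, Mir342 and Evl, called members and the 3 smallest p-values of each list, and the 5 genes with the highest Pearson correlation with Ednrb and Ece1 (mean log2 CPM of at least 2, standard symbol); some list members are given by level only. The values of 1 list member are not reported here.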

Additional observations from a re-analysis of the deposited data

How the results depend on the processing

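The calls over all genes depended on the processing, while the levels of Ednrb and Ece1 moved little. Over 18 alternatives, overexpression minus mutated control gave −1.36 to −1.20 for Ednrb and 0.65 to 0.75 for Ece1. This comparison chose the 2 genes, so their calls in it are a description and no test. Each was called in 14 of the 18. Both calls ended without mutated control replicate 1 or replicate 2, and with a replicate block by title number or description number. Against scramble, overexpression gave −0.81 to −0.65 for Ednrb and 0.06 to 0.16 for Ece1. The mutated control against scramble gave 0.52 to 0.59 for Ednrb and −0.63 to −0.54 for Ece1. The sponge gave −0.0403 to 0.204 for Ednrb and −0.0103 to 0.0778 for Ece1 with any 1 library left out, and −0.0273 for Ece1 without the 2 joined libraries, with 0 calls.

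The count of 85 genes for overexpression minus mutated control was 1390 with no expression filter, 500 with DESeq2, 34 with only the 2 groups compared and 0 to 279 with 1 library left out. It was 0 with either replicate block, against 1807 and 1565 genes at an unadjusted p under 0.05. For the sponge the count was 24 with no filter, 1 with DESeq2, and 0 to 0 with 1 library left out. For overexpression minus scramble the count of 7 became 747 with no filter, 234 with DESeq2, 3 with the title block, 3 without the joined libraries and 1 to 37 with 1 library left out. For mutated control minus scramble the count of 4 became 149 with no filter, 90 with DESeq2, 574 with only the 2 groups compared, 1 with either block, 1 without the joined libraries and 0 to 36 with 1 library left out. The cause was not tested. Libraries of equal number seldom deviated together: by title, 1 of 13 pairs had a correlation over 0.1 and by description 0 of 13. By title 2 and by description 1 of 10 libraries correlated best with their own number. In a group of 2 libraries the deviations mirror each other, so this check cannot decide whether the libraries were paired. Edn1, Ece2 and Ednra are limited by depth.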

Other observations

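Mir342 lies within Evl, which encodes an actin regulator and whose own transcript was measured in every library. Evl had 92.8, 82.1 and 81.4 CPM in the overexpression libraries, against 83.9 and 90.8 CPM in the mutated control libraries. It had 85.2, 95.8 and 89.1 CPM in the sponge libraries, against 86.7 and 88.7 CPM in the scramble libraries. The Evl libraries of all 4 groups overlapped, while hairpin reads were present in the overexpression and mutated control libraries and at 0 in the other 5.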
